A study of Mus musculus with 4 samples.

Results

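The Notch pathway genes described here are 34 named genes: 4 Notch receptors, 5 ligands, 2 receptor proteases, 3 Fringe enzymes, 4 genes of the nuclear complex, 9 Hes and Hey repressors and 7 modulators. They were chosen by symbol from the series gene count table, and each needed at least 40 reads over the 4 libraries. All 34 of the 34 listed genes were found and passed, among 24548 genes in the table and 23128 that passed. The lowest was Rfng, with 26 ChIP and 22 input reads in basal cells and 22 and 27 in luminal cells, so no listed gene lay below the minimum.

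The study used chromatin immunoprecipitation and sequencing (ChIP-seq) to recover DNA associated with Foxp1, a forkhead transcription factor, from mammary epithelial cells of untreated wild-type FVB/N female mice (the sample labels spell the strain FBV/N) aged 10 to 12 weeks. There are 4 libraries: 1 Foxp1 ChIP and 1 input library of basal epithelial cells, and 1 of each of luminal epithelial cells, where input is chromatin DNA sequenced without antibody. Basal cells form the contractile outer layer of the ducts and luminal cells the inner layer. The labels do not say how many animals were pooled or how the cells were sorted, and no control antibody library was analysed here. Because each group is a single library, every interval below is a 99% counting interval. It covers counting error only, treats any PCR copies left in the counts as separate molecules, and compares libraries rather than conditions. How many cells carry Foxp1 at a region and how much each carries cannot be told apart in such bulk chromatin.

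Notch receptors sit in the cell membrane and are activated by Delta-like (Dll) and Jagged (Jag) ligands on neighbouring cells. Ligand binding leads to cleavage of the receptor, first by Adam proteases and then by the gamma-secretase complex, and the freed intracellular domain enters the nucleus. There it joins the DNA-binding protein Rbpj and a Mastermind-like (Maml) coactivator and switches on targets, classically the Hes and Hey genes, which encode basic helix-loop-helix repressors. In the mammary gland the pathway is known for its part in luminal cell fate. A read count of a gene region in ChIP is a measure of DNA recovery and says nothing directly about how much of the gene's RNA is made.

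The 300-base promoter windows of 5 members are shown first because these members were called higher in ChIP and have an entry in the RefSeq promoter table (GRCm38.p6). The first 4 were called higher in basal ChIP and Nrarp in luminal ChIP. These 5 were picked with their values known. Each window runs from 250 bases before to 50 bases after an annotated start, is written 5′ to 3′ on the gene's strand, and has in capitals every match, on either strand, to the motifs searched. These were the forkhead-type motifs TGTTTAC, then TGTTTAT, then TGTTGAC, the shorter forkhead core TGTTT, and the core bound by Rbpj, TGGGAA. The windows are chr7:27258511-27258810 (plus strand) for Numbl, chr3:52104957-52105256 (minus strand) for Maml3, chr12:112929446-112929745 (minus strand) for Jag2, chr2:137116471-137116770 (minus strand) for Jag1 and chr2:25180508-25180807 (plus strand) for Nrarp.
Numbl: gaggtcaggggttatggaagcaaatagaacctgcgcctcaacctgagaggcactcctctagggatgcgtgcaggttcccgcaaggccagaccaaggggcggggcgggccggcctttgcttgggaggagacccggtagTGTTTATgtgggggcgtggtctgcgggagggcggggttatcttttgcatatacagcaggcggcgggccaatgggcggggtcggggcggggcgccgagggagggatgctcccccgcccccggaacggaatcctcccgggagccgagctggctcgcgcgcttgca
Maml3: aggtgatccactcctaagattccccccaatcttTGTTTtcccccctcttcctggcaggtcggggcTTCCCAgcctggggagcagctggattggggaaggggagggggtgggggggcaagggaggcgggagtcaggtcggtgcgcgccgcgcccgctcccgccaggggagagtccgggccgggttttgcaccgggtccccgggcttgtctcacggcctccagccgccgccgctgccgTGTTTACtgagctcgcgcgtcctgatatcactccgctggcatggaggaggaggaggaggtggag
Jag2: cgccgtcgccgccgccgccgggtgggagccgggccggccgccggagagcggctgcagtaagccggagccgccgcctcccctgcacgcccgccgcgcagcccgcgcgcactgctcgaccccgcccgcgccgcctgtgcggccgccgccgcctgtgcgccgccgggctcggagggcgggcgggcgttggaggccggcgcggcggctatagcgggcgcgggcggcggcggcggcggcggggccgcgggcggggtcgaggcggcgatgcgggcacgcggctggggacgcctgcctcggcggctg
Jag1: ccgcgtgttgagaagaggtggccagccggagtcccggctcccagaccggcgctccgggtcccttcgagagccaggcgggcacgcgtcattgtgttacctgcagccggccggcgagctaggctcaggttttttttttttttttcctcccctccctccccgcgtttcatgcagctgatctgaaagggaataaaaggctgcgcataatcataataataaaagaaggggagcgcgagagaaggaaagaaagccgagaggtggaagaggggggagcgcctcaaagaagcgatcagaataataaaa
Nrarp: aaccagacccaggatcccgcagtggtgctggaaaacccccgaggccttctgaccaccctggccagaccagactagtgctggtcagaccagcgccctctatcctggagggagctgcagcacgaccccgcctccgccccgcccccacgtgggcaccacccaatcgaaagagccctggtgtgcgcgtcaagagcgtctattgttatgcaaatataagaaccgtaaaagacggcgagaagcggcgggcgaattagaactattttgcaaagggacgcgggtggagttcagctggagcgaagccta
Hes1, the member with the highest ratio in both cell types, has no entry in that table, nor have Hes2, Hes3, Hey1, Heyl, Mfng, Dtx3 and Dtx4.

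Numbl held TGTTTAT beginning 113 bases before its start, and Maml3 held TGTTTAC beginning 14 bases before its start. Of the 32851 promoter windows in the table, 3.65% held TGTTTAC, 4.6% held TGTTTAT and 2.5% held TGTTGAC, counting both strands. The first 2 of these contain the shorter TGTTT, which stood in 50.5% of all windows. By gene, at least 1 window held it in 49.7% of 17432 tested genes with an entry and in 11 of the 26 members with an entry. Maml3 also held TGTTT 217 bases and TGGGAA 185 bases before its start. The Jag2, Jag1 and Nrarp windows held none of these motifs. Matches were also found in members that were not called: Numb had TGTTTAT and Maml2 had TGTTTAC. By gene, TGTTTAC stood in 2 of the 26 members and 3.53% of tested genes with an entry, and TGTTTAT in 2 and 4.58%. Over tested genes the median basal log2 ratio was -0.030 with TGTTTAC and -0.009 without. For TGTTTAT it was -0.086 and -0.005, and for TGTTT -0.052 and 0.033. The luminal medians were likewise lower with each of these motifs than without. The Rbpj core TGGGAA stood in 25.6% of all windows and, by gene, in 27.2% of the tested genes with an entry. Of the 26 members 8 had it, namely Rbpj, Maml2, Maml3, Hes5, Hes7, Hey2, Lfng and Dtx2. Hes1 is absent from this count for want of an entry. A match describes these letters only and is not a measured binding site.

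What the read counts cover bears on every value below. Among genes with a single annotated start, the median of reads summed over the 2 inputs depended on the distance to the nearest start of another counted gene. For starts 2000 to 3000 bp apart it was 96 in 121 genes whose nearest start is divergent (the genes point away from each other), 144.5 in 80 genes with it on the same strand and 272 in 22 with a convergent one. Beyond 20000 bp the medians were 363, 354 and 353. Genes with a divergent neighbour reached this level at 6000 to 8000 bp (364), whereas at 4000 to 5000 bp the divergent median was 279, the same-strand median 314.5 and the convergent median 324.5. The reads are read here as those of a window of some kilobases around each start, longer upstream than downstream. This reading assumes that reads shared by neighbouring windows went uncounted, and it was not tested. No source used here states which part of a gene was counted.

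**Figure D1:**
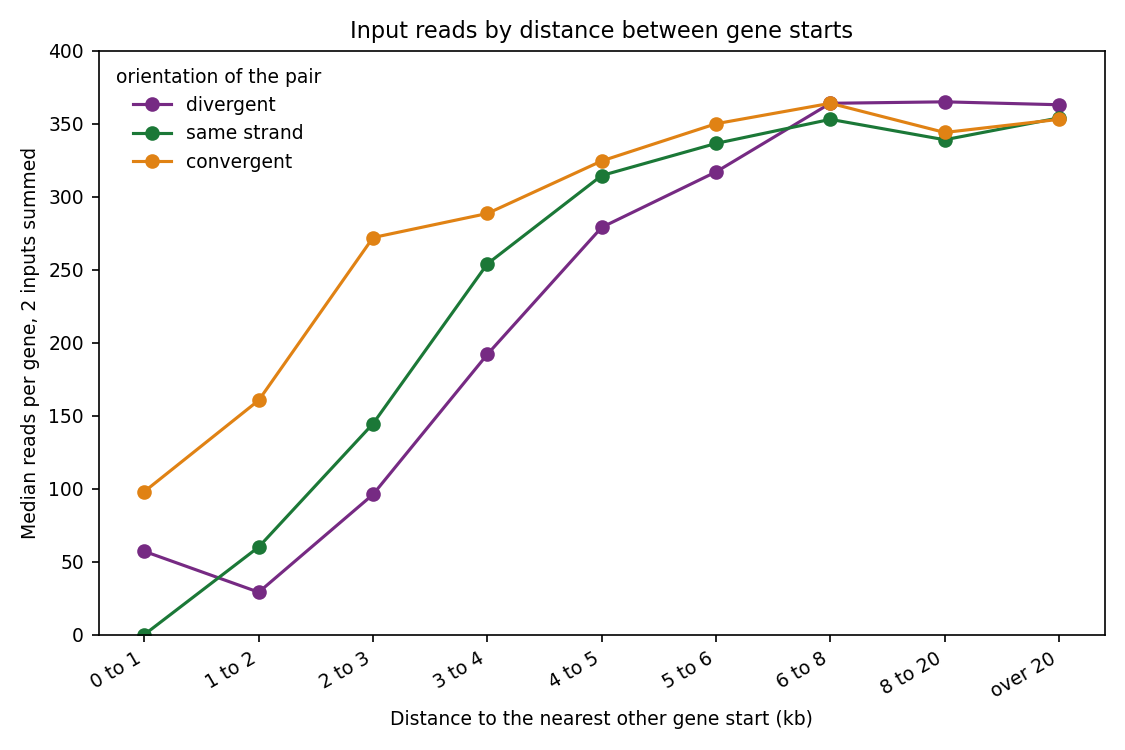
Median reads per gene in the 2 inputs summed (vertical axis) by distance in kb to the nearest start of another counted gene (horizontal axis), for genes with a single annotated start whose nearest start is divergent, on the same strand or convergent. At 2 to 3 kb the median was 96 for divergent, 144.5 for same-strand and 272 for convergent neighbours, and the lines meet beyond 6 kb.

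Most Notch members had input counts near those of isolated genes. In 30 members the 2 inputs held 216 to 549 reads together, and in 4 they held fewer than 150. Among the latter, Notch1, Rfng and Dll4 have the start of another gene close by. The start of Notch1 lies 105 bp from the divergent start of Gm35978, that of Rfng 66 bp from the divergent start of Gps1, and that of Dll4 413 bp from the convergent start of Gm14207. Dtx3 overlaps F420014N23Rik, and its start distance is not known here. By annotated span, Arhgef25 lies 290 bp and Pip4k2c 569 bp from Dtx3. Jag2, Adam17, Maml2, Hes3 and Numb also overlap another gene and held 304 to 477 input reads. Why Notch1, Rfng, Dll4 and Dtx3 have few reads was not tested. Their few reads make their intervals wide. Reads could not be assigned to strands from the files, so an antisense neighbour and the member cannot be told apart where they overlap.

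Gene regions held 3080114 to 4201459 reads per library. The median member had 194 ChIP and 155.5 input reads in basal cells and 184.5 and 217 in luminal cells, and the median tested gene 160 and 144 in basal and 136 and 192 in luminal cells. Members thus have somewhat more reads than the typical gene, and more reads give narrower intervals; the part of this in the counts of calls was not tested. Ratios are of counts scaled by TMM, a method that sets a common centre for the libraries from the bulk of genes. A gene was called when its scaled ratio was at least 1.5-fold and its interval excluded 1. RNA is not measured, so the cell type labels cannot be checked on expression. As a description, the 8 basal marker regions had a median log2 ratio of 0.50 in basal and -0.17 in luminal ChIP. Krt5 and Krt14, keratin genes of basal cells, were called in basal ChIP at 1.73-fold (1.37 to 2.19) and 1.82-fold (1.44 to 2.31). The other basal markers were not called there, their log2 ratios running from -0.0005 for Trp63 to 0.55 for Oxtr. The 11 luminal marker regions had medians of 0.19 and 0.26. Krt8, Gata3 and Epcam were called in luminal ChIP, at 1.58-fold, 2.01-fold and 1.69-fold. Epcam was also called in basal ChIP, at 1.89-fold. Elf5 stood below input in luminal ChIP, at 0.716 (0.531 to 0.957), without being called. The inputs moved too, at a median log2 basal over luminal of 0.28 for basal and -0.37 for luminal markers, and the part of this in the ratios was not tested.

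In basal cells 5 of the 34 Notch members were called higher in Foxp1 ChIP than in input: Hes1, Numbl, Maml3, Jag2 and Jag1. Dtx3 was the member called lower. Of all tested genes, 4.24% were called higher and 4.06% lower, and the members' shares were 14.7% and 2.94%. The members' median log2 ratio was 0.10 with 21 above 0, against -0.01 for all tested genes. In luminal cells 2 of 34 were called higher, Hes1 and Nrarp, and none lower. The background was 1.5% higher and 2.13% lower, and the members' median was 0.14 with 25 above 0, against -0.00 for all tested genes. When the centre was set on 1108 olfactory receptor genes, which are used mainly in sensory neurons, the median of all genes moved up by 0.21 in basal and 0.07 in luminal cells. The counts called higher then became 9 of 34 (background 12.9%) and 4 of 34 (background 2.49%). The members' share lay above the background share under both centres, while the counts themselves depended on where the zero was placed. The receptor genes also differed between the inputs, at a median log2 basal over luminal of 0.21, with 971 of 1108 above 0. Between the ChIP libraries their median was 0.06. This centre thus carries an input difference, and its part in the basal shift was not tested.

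**Figure D2:**
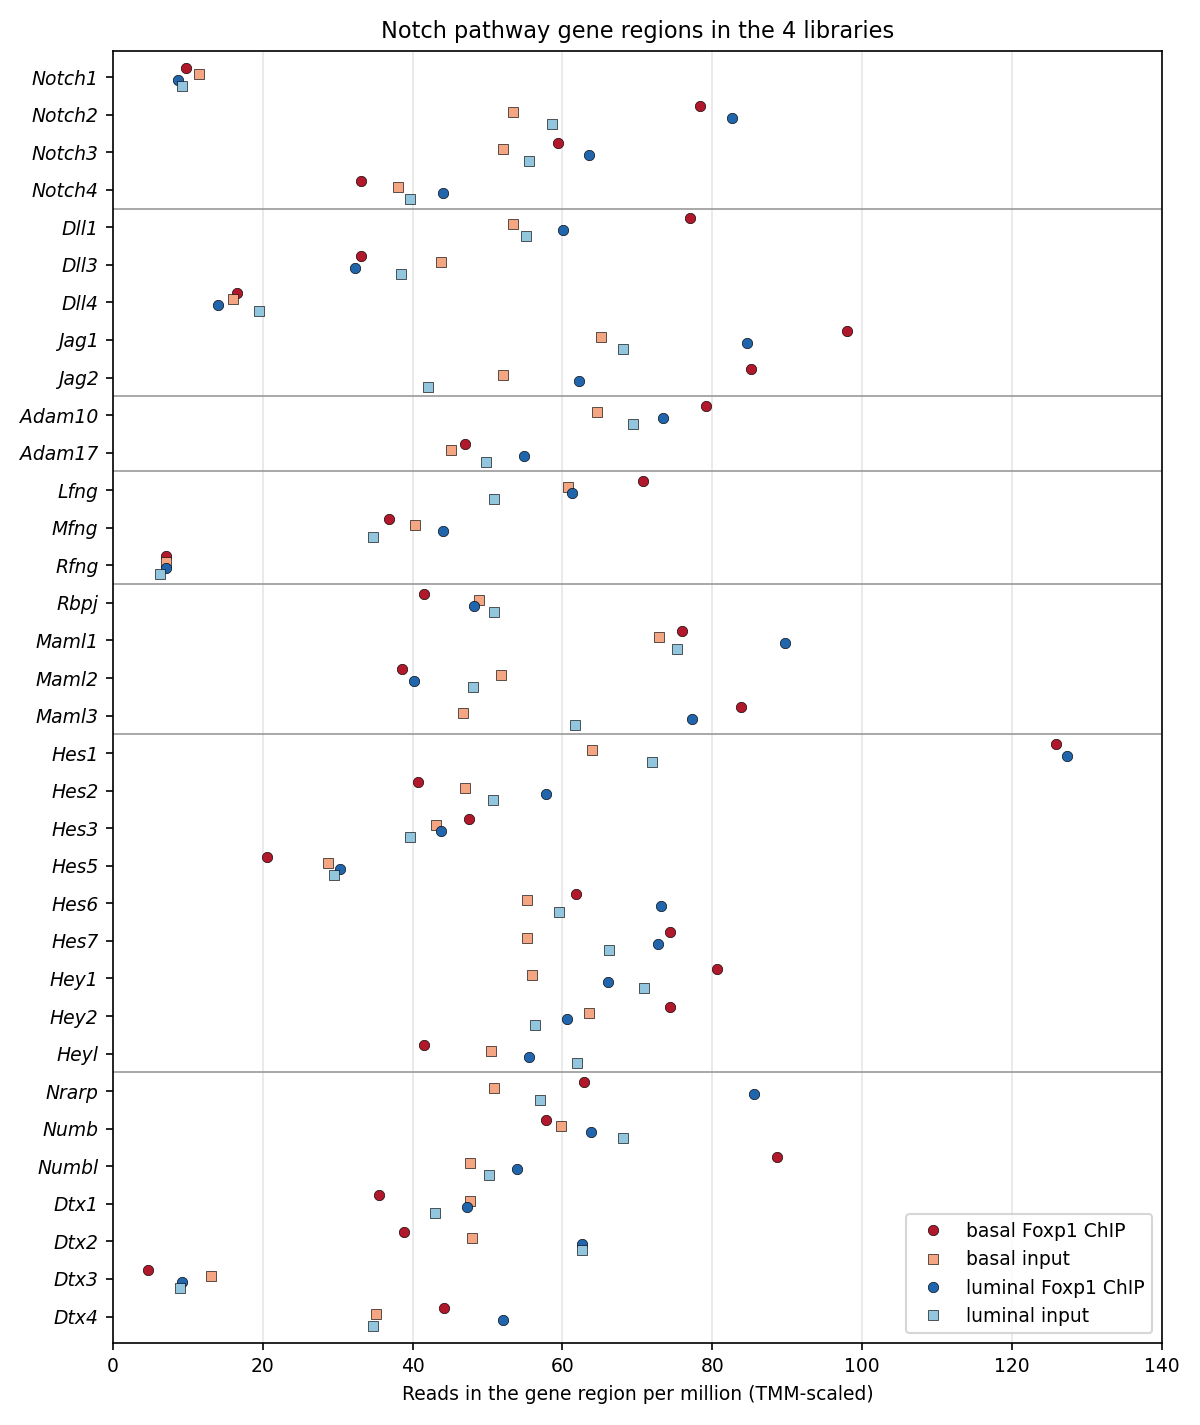
Gene-region reads as TMM-scaled CPM (horizontal axis) for the 34 Notch members, grouped by role, in basal ChIP (red circles), basal input (orange squares), luminal ChIP (blue circles) and luminal input (light blue squares). For Hes1 both ChIP libraries (126 and 127) lie apart from both inputs (63.9 and 72.0), whereas for Numbl basal ChIP alone (88.7) lies apart from the other libraries (47.6 to 53.9).

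Among the effectors, Hes1, a basic helix-loop-helix repressor and a classical direct target of Notch, was the member with the highest ratio in both cell types. Its gene (Entrez gene 15205, protein-coding) spans chromosome 16, 30065357 to 30067796, GRCm38. Here and below such positions are annotated gene spans, not the part that was counted. Hes1 had 464 ChIP reads over 200 input reads in basal cells, and 399 over 307 in luminal cells. Both ChIP libraries were high, and scaled to a common size they were nearly the same (126 and 127 CPM, the count as a share of the scaled library size) over inputs of 63.9 and 72.0. The ratio was 1.97-fold in basal cells (1.58 to 2.46) and 1.77-fold in luminal cells (1.45 to 2.16). Among 23128 genes these rank 200th and 174th from the top. It was the single member called in both cell types, where 0.467% of all genes were. The difference between cell types, as a log2 ratio of the ratios, was 0.15 (standard error 0.16, interval -0.27 to 0.58), an interval that includes equal ratios.

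The other 8 Hes and Hey regions did not pass in either cell type. Hey1, a repressor related to the Hes proteins and also a Notch target, had 297 ChIP over 175 input reads in basal cells and 207 over 302 in luminal cells. Its ratio was 1.44-fold in basal cells (1.12 to 1.85), short of the 1.5-fold minimum, and 0.933 in luminal cells (0.735 to 1.18). The basal interval lay above 1 and the luminal one included it. The ratio of ratios was called, at log2 0.62 (standard error 0.19, interval 0.14 to 1.11). Its inputs differed by a log2 basal over luminal ratio of -0.34, without passing. With both inputs summed as a common background, the inputs cancel and the difference is that of the ChIP libraries alone. The difference was then 0.29 and was no longer called. It was also lost when the interval was widened by how far olfactory receptor ratios spread beyond counting error (-0.10 to 1.35).

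Hes7, a repressor known for the segmentation clock of the embryo, had 274 reads over 173 in basal and 228 over 282 in luminal cells, at 1.34-fold (1.04 to 1.74) and 1.1-fold (0.87 to 1.39). Hey2 had 274 over 199 and 190 over 240, at 1.17-fold and 1.08-fold. Hes6, which can counteract Hes1, had 228 over 173 and 229 over 254, at 1.12-fold and 1.23-fold. The intervals of Hey2 and Hes6 included 1 in both cell types. Hes3 had 175 over 135 and 137 over 169, at 1.1-fold in each. Hes2 had 150 over 147 and 181 over 216, at 0.866 and 1.14. Heyl had 153 over 158 and 174 over 264, at 0.822 and 0.897. These 3 also had intervals that included 1 throughout. Hes5, another classical Notch target, had 76 over 90 reads in basal and 95 over 126 in luminal cells, at 0.717 (0.473 to 1.08) and 1.03 (0.714 to 1.47). Its nearest counted start, of Pank4 on the same strand, is 3200 bp away, and its 2 inputs held 216 reads together. Over the 9 repressors the log2 ratio ran from -0.48 to 0.98 in basal and from -0.16 to 0.82 in luminal cells.

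Of the ligands, both Jagged genes were called in basal cells, where 4.24% of all tested genes were called higher. None of the 3 Delta-like genes was called, but Dll1, at 1.44-fold, lay close to Jag1 at 1.5-fold. Jag2 (Entrez gene 16450, chromosome 12, 112907803 to 112929812), whose promoter window shown above is 86% G or C, had 314 over 163 reads in basal cells and 195 over 179 in luminal cells, ChIP over input. The ratios were 1.64-fold (1.27 to 2.11) and 1.48-fold (1.13 to 1.95). Both intervals excluded 1, and the luminal value fell just under the fold minimum. Jag1 (Entrez gene 16449, chromosome 2, 137081451 to 137116520) had 361 over 204 and 265 over 290, at 1.5-fold (1.2 to 1.89) and 1.24-fold (0.995 to 1.55). Its basal value lies at the fold minimum itself, with a log2 ratio of 0.59, and was no longer called with total-count scaling (0.53) or with the inputs summed (0.55).

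Dll1, a Delta-like ligand, had 284 reads over 167 in basal and 188 over 235 in luminal cells, at 1.44-fold (1.12 to 1.87) and 1.09-fold (0.841 to 1.41). Dll3, which is known to inhibit Notch signalling within its own cell, had 122 over 137 and 101 over 164, at 0.756 (0.544 to 1.05) and 0.838 (0.598 to 1.17). Dll4, best known from blood vessels, had 61 over 50 and 44 over 83, at 1.04 (0.623 to 1.73) and 0.721 (0.433 to 1.18). The Dll4 value in luminal cells was the lowest of all members there, and its interval included 1. No ligand differed between cell types by the call, the log2 differences running from -0.15 for Dll3 to 0.51 for Dll4.

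No Notch receptor passed in either cell type. Notch2 came nearest, with 289 ChIP over 167 input reads in basal cells and 259 over 250 in luminal cells. Its ratios were 1.47-fold (1.14 to 1.9) and 1.41-fold (1.12 to 1.78), with both intervals above 1. The log2 difference between the cell types was 0.06 (interval -0.43 to 0.55). Notch3 had 219 over 163 and 199 over 237, at 1.14-fold in each cell type (0.87 to 1.5 and 0.887 to 1.47). Notch4, known chiefly from endothelium, had 122 over 119 and 138 over 169, at 0.87 (0.619 to 1.22) and 1.11 (0.82 to 1.5). Notch1 had 36 over 36 reads in basal and 27 over 39 in luminal cells, at 0.849 and 0.942. Its intervals ran from 0.448 to 1.61 and from 0.471 to 1.84. At this depth a ratio of the size seen at Notch2 could not be told from none.

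By the interval alone, a criterion added after the values were seen, 9 members lay above 1 in basal and 5 in luminal cells. These were Notch2, Dll1, Jag1, Jag2, Maml3, Hes1, Hes7, Hey1 and Numbl in basal cells, and Notch2, Jag2, Hes1, Nrarp and Dtx4 in luminal cells. The background by this criterion was 11.7% of genes in basal and 6.74% in luminal cells. Notch2, Jag2 and Hes1 met it in both, where 3.1% of all genes did.

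**Figure D3:**
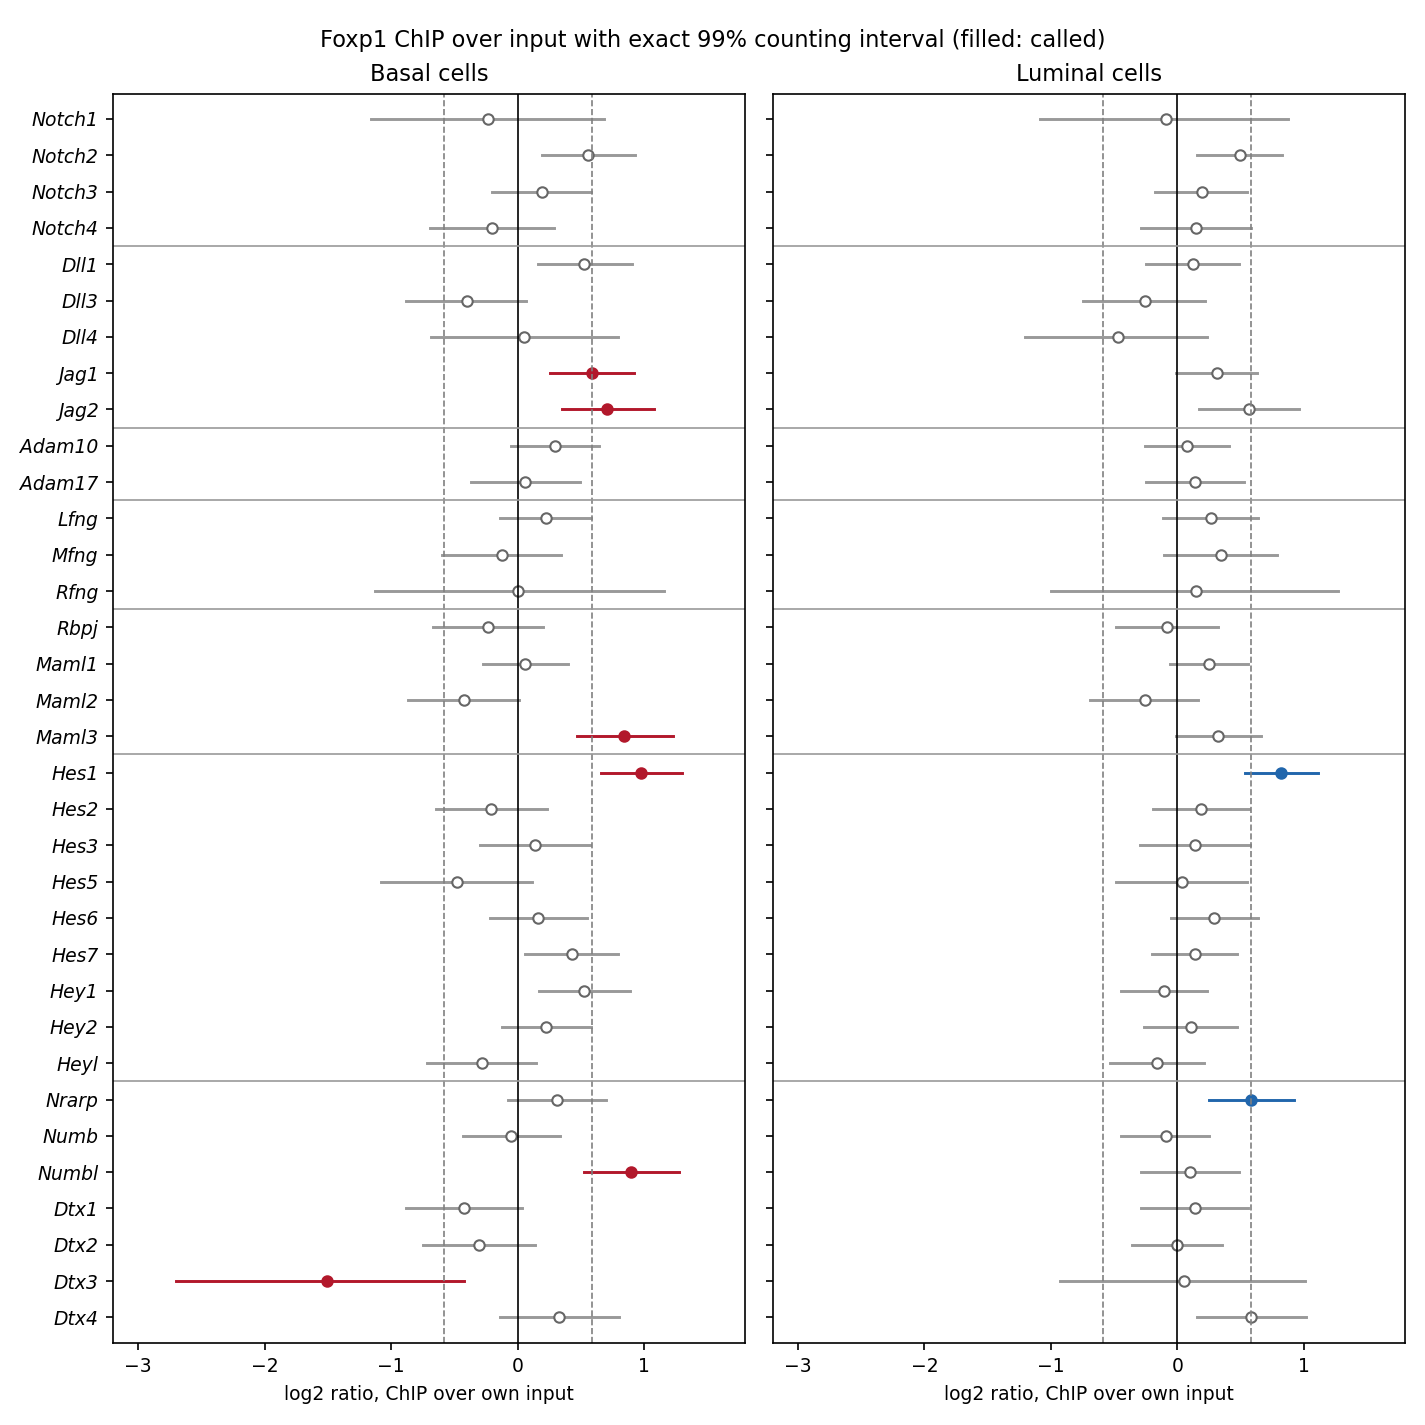
Log2 ratio of Foxp1 ChIP over own input (horizontal axis) for each Notch member in basal (left) and luminal (right) cells, with exact 99% counting intervals as bars; filled points were called and dashed lines mark 1.5-fold. Hes1 is filled on both sides (0.98 and 0.82), and the bars of Notch1, Rfng and Dtx3 are the widest.

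In the nuclear complex, Maml3, a Mastermind-like coactivator, was called in basal cells and its relatives were not. Maml3 (Entrez gene 433586, chromosome 3, 51687320 to 52105319) had 309 ChIP over 146 input reads in basal cells and 242 over 263 in luminal cells. The basal ratio was 1.8-fold (1.38 to 2.35), and the luminal ratio 1.25-fold (0.991 to 1.58). The log2 difference of 0.52 (standard error 0.19) had an interval of 0.02 to 1.02 but stayed under the fold minimum. Its inputs differed by log2 -0.40, basal under luminal, and between the ChIP libraries directly the log2 difference was 0.12. Maml1 had 280 over 228 and 281 over 321, at 1.04-fold and 1.19-fold. Maml2 had 142 over 162 and 126 over 205, at 0.744 (0.549 to 1.01) and 0.836 (0.619 to 1.12). Rbpj, the DNA-binding partner of the Notch intracellular domain, had 153 over 153 and 151 over 217, at 0.849 (0.628 to 1.15) and 0.947 (0.715 to 1.25). Maml1, Maml2 and Rbpj had intervals that included 1 in both cell types.

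Among the modulators, Numbl differed most in the direction of basal cells. It encodes a Numb-like adaptor; Numb proteins are endocytic adaptors that restrain Notch signalling. Numbl (Entrez gene 18223, chromosome 7, 27258438 to 27282150) had 327 ChIP over 149 input reads in basal cells, and 169 over 214 in luminal cells. Basal ChIP was high at 88.7 CPM and the other libraries lay between 47.6 and 53.9. The ratio was 1.86-fold in basal cells (1.44 to 2.42) and 1.07-fold in luminal cells (0.819 to 1.41). The log2 difference was 0.79 (standard error 0.21, interval 0.26 to 1.32). With the inputs summed, which leaves basal over luminal ChIP alone, it was called at 0.72. It was also called with the widened interval (0.01 to 1.57), where the lower bound was close to 0. Numb itself had 213 over 187 and 200 over 290, at 0.967 (0.743 to 1.26) and 0.938 (0.736 to 1.19).

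Nrarp, an ankyrin-repeat protein that is induced by Notch and dampens it, was called in luminal cells. Nrarp (Entrez gene 67122, annotated span chromosome 2, 25180758 to 25183339) had 232 reads over 159 in basal and 268 over 243 in luminal cells. The ratios were 1.24-fold (0.947 to 1.63) and 1.5-fold (1.19 to 1.89). As with Jag1, the called value was at the minimum, and with total-count scaling the luminal log2 ratio of 0.55 was no longer called. The log2 difference between cell types was -0.28 (interval -0.78 to 0.23) and was not called.

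The Deltex genes encode ubiquitin ligases that act on Notch. Dtx3 (Entrez gene 80904, chromosome 10, 127190373 to 127196498) had 17 ChIP over 41 input reads in basal cells and 29 over 38 in luminal cells. Basal ChIP was low, and the ratio was 0.352 (0.153 to 0.747) against 1.04 (0.527 to 2.01) in luminal cells. The log2 difference was -1.54 (standard error 0.54, interval -2.94 to -0.15). Both the basal call and the difference were lost with the widened interval, and the difference also with the inputs summed (-0.99). Dtx4 had 163 over 110 and 163 over 148, at 1.26-fold (0.911 to 1.75) and 1.5-fold (1.11 to 2.02), with a luminal log2 ratio of 0.58 just under the minimum. Dtx1 had 131 over 149 and 148 over 183, at 0.746 (0.543 to 1.02) and 1.1-fold (0.821 to 1.47). Dtx2 had 143 over 150 and 196 over 267, at 0.809 (0.594 to 1.1) and 0.999 (0.779 to 1.28). Apart from the luminal interval of Dtx4, those of Dtx1, Dtx2 and Dtx4 included 1.

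The receptor proteases and Fringe enzymes were not called in either cell type. Adam10, the main protease of ligand-bound Notch, had 292 over 202 and 230 over 296, at 1.23-fold (0.967 to 1.56) and 1.06-fold (0.839 to 1.33). Adam17 had 173 over 141 and 172 over 212, at 1.04-fold and 1.1-fold. The Fringe enzymes add sugars to the receptors and change their response to the ligands. Lfng had 261 over 190 and 192 over 217, at 1.17-fold and 1.2-fold, and Mfng 136 over 126 and 138 over 148, at 0.916 and 1.27. Rfng stood at 1 and 1.11 on 22 to 27 reads per library, with intervals from 0.457 to 2.24 and from 0.5 to 2.41.

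Between cell types, 2 of 34 members had a higher ratio in basal cells, Numbl and Hey1, and 1 had a higher ratio in luminal cells, Dtx3. The background was 3.72% and 4.16% of all genes. The members' median log2 difference was -0.11, and 13 of 34 lay above 0, against 50.4% of all genes; with olfactory receptors as centre the members' median turned to 0.04. In 19 members (55.9%) the ratio was above input in both cell types, compared with 28.6% of all tested genes; 7 lay below in both, 2 above in basal cells alone and 6 above in luminal cells alone. Between the inputs, which hold no antibody signal, none of the 34 was called in either direction, where 0.709% of genes were higher in basal and 0.463% in luminal input. The members' input differences ran from -0.40 for Maml3 to 0.56 for Dtx3. Between the ChIP libraries directly, 1 of 34 was called higher in basal ChIP, Numbl (log2 0.72), and 1 in luminal ChIP, Dtx2 (-0.69), where 4.05% and 3.98% of all genes were. This is the same ratio as the difference with the inputs summed, not a separate result. The Dtx2 inputs lay in the same direction (-0.39), and its ratios over input were not called as different.

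**Figure D4:**
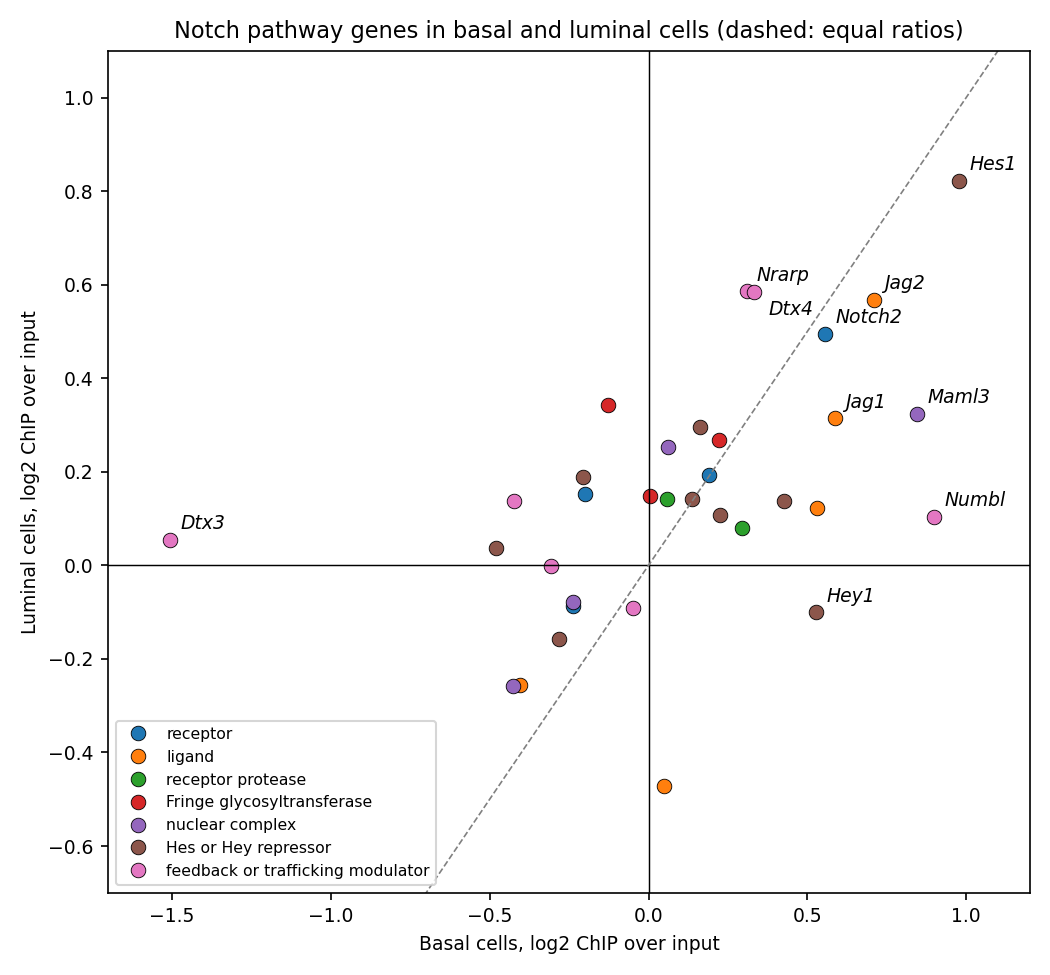
Log2 ChIP over input in basal (horizontal axis) and luminal cells (vertical axis) for the 34 Notch members, coloured by role; the dashed line marks equal ratios. Hes1, Jag2 and Notch2 lie far from 0 on both axes, while Numbl (0.90 and 0.10), Hey1 (0.53 and -0.10) and Dtx3 (-1.51 and 0.05) lie away from the line.

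The nearest genes by annotated span are described for the 6 members called higher in either cell type. Since the reads are read here as those around each start, a neighbour's value describes its own start, which may lie far away. Slx4ip lies 100 bp from Jag1 by span, but their starts are 217169 bp apart. These values therefore cannot show whether higher values reached the next region, and this was not tested. Of the 12 nearest counted genes on their sides, 1 was called higher in basal ChIP and none in luminal ChIP. The log2 ratios of these neighbours ran from -0.57 to 0.83 in basal and from -0.26 to 0.46 in luminal cells. The neighbour called was Coq8b, a gene of coenzyme Q synthesis whose annotated span lies 489 bp from that of Numbl. It had 250 over 119 reads in basal cells (log2 0.83) and 125 over 181 in luminal cells (-0.09), high in basal ChIP as Numbl was. The gene on the other side of Numbl, Ltbp4, stood at log2 -0.39 in basal cells. The neighbours of Hes1 are 25.9 and 189 kb away by span. They had log2 ratios of 0.19 and -0.37 in basal and -0.15 and -0.03 in luminal cells.

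Other genes of the pathway were taken from a list of 60, of which 57 had enough reads; Psenen, Ncor1 and Kat2a did not. In basal cells 4 of the 57 were called higher and 3 lower (7.02% and 5.26%), and in luminal cells 4 higher and 2 lower, against the background shares given above. Their median log2 ratios were 0.15 and 0.06. Ctbp2, a corepressor, was called in both cell types, with 322 reads over 131 in basal (2.09-fold, 1.6 to 2.75) and 201 over 172 in luminal cells (1.59-fold, 1.21 to 2.09). Tle2, a Groucho-type corepressor, was called lower in both, at 0.617 in each (93 over 128 and 98 over 216). Its relative Tle3 was called higher in basal cells at 1.55-fold (1.24 to 1.95) and stood at 0.968 in luminal cells.

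The coactivator Crebbp was called in basal cells at 1.73-fold (1.34 to 2.26), and so was Bhlhe41, a repressor of the same wider family as Hes, at 2.05-fold (1.62 to 2.59). In luminal cells Epn1, an endocytic adaptor used in ligand uptake, stood at 1.68-fold (1.31 to 2.15), Spen, a corepressor that binds Rbpj, at 1.59-fold (1.28 to 1.98), and the acetyltransferase Kat2b at 1.54-fold (1.21 to 1.96). The remaining calls were lower ones on few reads: Dner (13 over 36) and Bend6 (9 over 23) in basal ChIP, and Aph1a (5 over 33) in luminal ChIP. Between cell types 5 of 57 were higher in basal cells (Aph1a, Dlk1, Hdac1, Tle3 and Bhlhe41) and 1, Dner, in luminal cells (8.77% and 1.75%), where 3.72% and 4.16% of all genes were.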

How the data were processed

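Foxp1 ChIP and input DNA of basal and luminal mouse mammary cells was sequenced, with 1 library per group, as single reads of 75 to 85 bp per the labels' protocols. The authors deposited raw read counts per gene. The reads were counted with featureCounts on build mm10, per the submitters' processing notes. Unknown are the aligner, versions, duplicate handling and counted part of each gene (not given in the sources used here). Counts in the series table equalled those in the per-sample files in 24548 of 24548 genes. TMM factors came from edgeR 4.0.16 (R 4.3.3) on the 23128 genes with at least 40 reads over the 4 libraries. Ratios have exact Clopper-Pearson 99% intervals of the 2 counts, and the difference between cell types an interval from the 4 counts plus 0.5; both need 1.5-fold. With single libraries, neither a count model nor p-values were used. Positions and promoters are RefSeq GRCm38.p6; 26 of 34 members had a promoter. Figures used matplotlib 3.10.9 and other steps Python 3.11.15 with scipy 1.17.1.

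Members and gene lists were chosen with earlier results of these data known. All 4 counts are given for members called in a comparison, the extreme members, the Notch receptors and the Hes and Hey genes, with others added. Alternatives were total-count and DESeq2 1.42.0 scaling, no count filter, a wider interval, olfactory receptors as centre, a 2-fold minimum and summed inputs; dropping the fold minimum was added after the data were seen.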

Additional observations from a re-analysis of the deposited data

Results flagged for a closer look

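For 3 Notch members the ChIP over input ratio differed between basal and luminal cells by at least 1.5-fold with a 99% counting interval that excluded equality, as log2 basal minus luminal. Numbl differed by 0.79, Hey1 by 0.62 and Dtx3 by -1.54. Of all tested genes 3.72% were called higher in basal and 4.16% higher in luminal cells, so 2 and 1 of 34 (5.88% and 2.94%) lie near the background, and the number of calls is not a result about these genes. The difference was set against counting error only, since there is 1 library of each kind, and was not tested across animals. In the interval widened by the spread among olfactory receptor genes, Numbl was still called while Hey1 and Dtx3 were not. Dtx3 rests on 17 to 41 reads per library.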

How the results depend on the processing

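No paired analysis was possible because each group holds a single library. DESeq2 scaling and the table without a count filter changed no call on any of the 34 members in the 4 comparisons. With total counts, 1 member was called higher in luminal ChIP instead of 2 (Nrarp lost) and 4 in basal ChIP instead of 5 (Jag1 lost). The shares of all genes called higher were then 1.16% and 3.02%. When intervals were widened by the spread of olfactory receptors (1.51 times in basal and 1.46 times in luminal comparisons), 0 members were called lower in basal ChIP, and 1 was called higher in basal and 0 in luminal cells for the difference. The matching shares of all genes were 1.08%, 0.895% and 0.558%. With olfactory receptors as centre, 9 were called higher in basal ChIP, 4 in luminal ChIP and 2 in luminal over basal input (Dtx2 and Maml3), where 3.89% of all genes were called in the inputs. Of all genes, 12.9% were then called higher and 1.02% lower in basal ChIP, 2.49% and 1.31% in luminal ChIP, and 8.68% higher in basal and 1.79% in luminal cells for the difference. With a 2-fold minimum, 0.553% of all genes were called higher in basal ChIP, 0.203% in luminal ChIP and 0.575% in basal cells for the difference. The members' counts were 0 in each, which at such shares is no result about them. The 0 counts hold for the TMM centre: with olfactory receptors as centre, the basal log2 ratios of Hes1 (1.19), Numbl (1.11) and Maml3 (1.06) lay above 2-fold. With the inputs summed, Jag1 was lost in basal ChIP, where 3.13% of all genes were called higher. For the difference, which is then basal over luminal ChIP alone, 1 member was called higher in basal cells and Dtx2 (-0.69) in luminal cells. Of all genes, 4% and 4.03% were called in these directions. Without a fold minimum, 9 were higher in basal ChIP, 5 in luminal ChIP and 2 in luminal over basal input, against 11.7%, 6.74% and 2.53% of all genes. No called value changed sign in these settings. Centring within bins of promoter GC content was not run: 26 of 34 members (76.5%) had a promoter sequence, under the 80% such a check needs. Notch1, Rfng, Dll4 and Dtx3 are limited by depth.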
